A study of Mus musculus with 18 samples.

Results

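The integrin and laminin chains represented on the array were examined in cultured mouse muscle cells in which dystrophin had been knocked down. Members were all genes whose symbol is Itga, Itgb, Lama, Lamb or Lamc followed by the code of a chain, with each gene read by its brightest probe. This gave 34 genes, 24 integrin chains and 10 laminin chains, of 17711 genes with a symbol on the array. Integrins are membrane receptors made of an alpha and a beta chain that bind the extracellular matrix outside the cell and the actin cytoskeleton inside it. Laminins are heterotrimers of an alpha, a beta and a gamma chain and form the sheet of the basement membrane around each muscle fibre. Skeletal muscle holds laminin with the dystrophin-dystroglycan complex and, alongside it, with integrin alpha 7 beta 1, and loss of the laminin alpha 2 chain or of integrin alpha 7 causes muscular dystrophy or myopathy in humans and mice. The question was whether transcripts of this adhesion system shifted when dystrophin fell.

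Primary myoblasts from limb muscles of C57BL/10 mice aged 3 to 5 days were transfected on days 2 and 4 and harvested on day 6, 48 hours after differentiation was induced. One group of 7 cultures received an siRNA targeting dystrophin (dystrophin siRNA), 7 received an siRNA targeting firefly GL2 luciferase, which mouse cells lack (GL2 siRNA, the treatment control), and 4 were left untreated. The study pooled muscle cells from several mice each time cultures were set up, so that a replicate is a culture and not an animal. The p-values measure the spread between cultures. Cultures set up together share a cell pool, and the main fit, without a block, treats them as independent replicates. RNA of each culture was hybridised to 1 Illumina MouseWG-6 v1.1 array with 46632 probes, and levels are given as background-corrected, quantile-normalized log2 intensities. A probe was called detected on an array at a detection p under 0.05. Differences between groups came from 1 limma fit over all 18 arrays and passed the test at a Benjamini-Hochberg adjusted p under 0.05 over all probes.

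The dystrophin transcript (*Dmd*) averaged 8.32 ± 0.16 with dystrophin siRNA (SD, n = 7), 10.32 ± 0.16 with GL2 siRNA (SD, n = 7) and 10.22 ± 0.12 in untreated myotubes (SD, n = 4). Against untreated myotubes *Dmd* fell by 1.90 on the log2 scale (SE 0.11, limma adjusted p = 1.81e-08), which leaves 26.8% of the signal, and no dystrophin siRNA array reached an untreated one (p = 0.00303 by a two-sided exact permutation test, the lowest value its 330 splits can give). Unlike the members, *Dmd* was read by its probe with the lowest p in this same comparison, so both p-values depend on that choice. Each array detected between 17551 and 18530 probes. All 6 markers of skeletal muscle that were measured, among them *Acta1*, *Des* and *Myog*, were detected on all 18 arrays. Dystrophin siRNA and GL2 siRNA arrays of the same replicate number deviated together from their group means (r = 0.35 to 0.51 over probes in all 7 pairs), whereas for untreated arrays r with the siRNA arrays of the same number was -0.08 to 0.28. These values do not show that same numbers match better than different ones, whose r was not summarised. By these deviations the 18 arrays were cut into 4 clusters, a number that was set and not found, and each cluster held all 3 groups. The study prepared its cultures on 4 occasions. The clusters were found in these arrays and are not known to be the culture occasions.

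Of the 34 chains, 17 were detected on all 18 arrays, 4 on some (*Itga9*, *Itgae*, *Itgb3* and *Lama3*), and *Itga4* on 2 arrays only. The 21 chains detected on at least 4 arrays made up 61.8% of the members, against 41.7% of all probes. The detected integrins included the laminin receptor chains *Itga3*, *Itga6* and *Itga7*, the collagen receptor chain *Itga11*, the fibronectin and vitronectin receptor chains *Itga5* and *Itgav*, *Itga9*, and the beta chains *Itgb1*, *Itgb3*, *Itgb4*, *Itgb5* and *Itgb6*. The detected laminins were *Lama2*, *Lama3*, *Lama4*, *Lama5*, *Lamb2*, *Lamb3* and *Lamc1*, so that every chain of laminin-221, the laminin alpha 2, beta 2 and gamma 1 trimer enriched at the neuromuscular junction, was represented. The 12 chains detected on no array were *Itga1*, *Itga2b*, *Itga8*, *Itgad*, *Itgam*, *Itgax*, *Itgb2*, *Itgb7*, *Itgb8*, *Lama1*, *Lamb1* and *Lamc3*. Among them are the leukocyte chains *Itgam*, *Itgax* and *Itgb2*, and the platelet chain *Itga2b*. The leukocyte chains *Itgal* and *Itgae* gave dim signals, with *Itgal* at 5.85 ± 0.29 with dystrophin siRNA, 5.73 ± 0.32 with GL2 siRNA and 5.81 ± 0.27 in untreated myotubes (SD, n = 7, 7 and 4). *Ptprc*, the pan-leukocyte gene, was detected on no array, while 8 of 10 leukocyte markers were detected on at least 4.

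Between dystrophin siRNA and GL2 siRNA, 3 integrin chains passed the threshold and no laminin chain of the 10 measured. *Itga5* was higher with dystrophin siRNA than with GL2 siRNA, and *Itga7* and *Itgb6* were lower. Against untreated myotubes none of the 3 passed with either siRNA in this fit. *Itga5* differed from untreated by 0.09 with dystrophin siRNA and by -0.52 with GL2 siRNA. The 3 chains called are 8.82% of the 34 members, against 3.76% of all probes in this comparison, and 14.3% of the 21 detected chains, against 8.27% of the detected probes. The median difference was 0.03 over the 34 chains and 0.00 over all probes, and the median absolute difference was 0.14 over the chains and 0.12 over all probes. At an unadjusted p under 0.05 there were 7 chains (20.6%), against 13.8% of all probes, and these were the 3 called chains with *Itga11*, *Lama2*, *Lamb3* and *Lamc1*. The chains are richer in detected genes than the array. For the unadjusted p and the medians no value over detected probes was computed, so these values have no matching base. For 12 of the 21 detected chains, the 95% confidence interval of the difference lay within 1.5 fold in both directions.

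*Itga5* on chromosome 15 encodes the alpha chain that pairs with integrin beta 1 as the classical fibronectin receptor. Its level on the 7 dystrophin siRNA arrays, in replicate order, was 8.70, 8.89, 8.63, 8.48, 8.30, 8.18 and 8.30. On the 7 GL2 siRNA arrays it was 8.05, 8.21, 8.10, 7.48, 7.85, 7.55 and 7.95, and on the 4 untreated arrays 8.58, 8.59, 8.24 and 8.20. Only dystrophin siRNA array 6 lay below the highest GL2 siRNA array, array 2, and the dystrophin siRNA arrays covered the range of the untreated ones. *Itga5* was 0.61 higher with dystrophin siRNA than with GL2 siRNA on the log2 scale (SE 0.14, adjusted p = 0.011), or 1.53 fold with a 95% confidence interval of 1.26 to 1.86 fold, and it was higher in all 7 same-numbered pairs. The call held under all 27 alternatives tried. Against untreated myotubes the level with dystrophin siRNA differed by 0.09 (adjusted p = 0.92) and that with GL2 siRNA by -0.52 (adjusted p = 0.17), and both values use the same 4 untreated arrays. In a fit that blocked on the array clusters, the GL2 siRNA value was -0.49 (adjusted p = 0.018). Because those clusters were built from these same arrays, this p-value can be too small.

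*Itga7* on chromosome 10 encodes the alpha chain of the main laminin receptor of skeletal muscle among the integrins. The brighter of its probes read 10.31, 10.31, 10.24, 10.27, 10.03, 9.85 and 10.11 with dystrophin siRNA. With GL2 siRNA it read 10.48, 10.68, 10.58, 10.46, 10.26, 10.53 and 10.67, and in untreated myotubes 10.37, 10.63, 10.27 and 10.39. GL2 siRNA array 5 was the only one to fall among the dystrophin siRNA arrays. The difference between the siRNAs was -0.36 (SE 0.09, adjusted p = 0.035), or 0.778 fold with an interval of 0.678 to 0.892 fold, and *Itga7* was lower in all 7 pairs. A second *Itga7* probe, detected on all 18 arrays, gave -0.64 (SE 0.09, adjusted p = 0.000268). Its dystrophin siRNA arrays, at 8.25 to 8.71, lay wholly below the GL2 siRNA arrays, at 8.83 to 9.29, as was so in either direction for 2.19% of all probes and 5.06% of detected probes. The untreated arrays of the second probe read 8.75, 8.85, 8.64 and 8.48, nearer to the dystrophin siRNA arrays. The brighter probe differed from untreated by -0.25 with dystrophin siRNA (adjusted p = 0.47) and by 0.11 with GL2 siRNA (adjusted p = 0.78). For the second probe these values were -0.21 (adjusted p = 0.61) and 0.43 (adjusted p = 0.089). The call of the brighter probe was lost with median centring of the arrays (-0.33, adjusted p = 0.14) and in a fit of the siRNA groups alone (adjusted p = 0.055). It was also lost without any 1 of dystrophin siRNA arrays 5, 6 and 7 and GL2 siRNA arrays 1, 2, 3, 4, 6 and 7, at differences of -0.31 to -0.37 and adjusted p up to 0.078.

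*Itgb6* on chromosome 2 encodes a beta chain that pairs with integrin alpha V and is best known from epithelia, where the pair activates latent TGF-beta. Its level was 8.13, 7.42, 7.55, 7.52, 6.99, 7.33 and 7.63 with dystrophin siRNA. It was 8.06, 8.12, 7.90, 7.64, 8.00, 8.56 and 8.42 with GL2 siRNA, and 8.25, 7.86, 7.73 and 7.84 in untreated myotubes. Dystrophin siRNA array 1 lay among the controls, and the other 6 lay below every GL2 siRNA array. The difference between the siRNAs was -0.59 (SE 0.16, adjusted p = 0.041), or 0.664 fold with an interval of 0.527 to 0.835 fold, with *Itgb6* lower in 6 of 7 pairs. With the replicate number as a block and only the siRNA arrays in the fit, the adjusted p was 0.074. A dimmer *Itgb6* probe gave -0.08 (adjusted p = 0.85), so the probes of this gene disagree. The call was also lost with median centring (-0.56, adjusted p = 0.053), in a fit of the siRNA groups alone (adjusted p = 0.067), and without any 1 of dystrophin siRNA arrays 2 to 7, GL2 siRNA arrays 1, 2, 5, 6 and 7 and untreated arrays 2 and 4, at differences of -0.50 to -0.61 and adjusted p of 0.052 to 0.094.

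*Itga11*, on chromosome 9, was called under some settings and not others. It encodes the alpha chain of a collagen receptor of mesenchymal cells. Its level was 13.04, 13.56, 13.38, 13.10, 13.05, 12.64 and 12.74 with dystrophin siRNA, against 12.64, 12.86, 12.92, 12.60, 12.56, 12.43 and 12.41 with GL2 siRNA and 13.12, 13.18, 13.26 and 13.10 in untreated myotubes. Taken as groups the siRNA arrays overlapped, while within each pair the dystrophin siRNA array was higher, by 0.21 to 0.70. The difference of 0.44 (SE 0.13) missed the threshold without a block (adjusted p = 0.065) and passed it with the replicate number as a block (adjusted p = 0.0049), with that block and only the siRNA arrays (adjusted p = 0.014) and in a fit that blocked on the array clusters (adjusted p = 0.0031). It also passed without dystrophin siRNA array 6 (0.51, adjusted p = 0.024) or 7 (0.50, adjusted p = 0.037) and without GL2 siRNA array 3 (0.49, adjusted p = 0.044). With no block it passed as well with a normexp background (adjusted p = 0.017), without background correction (adjusted p = 0.018) and with a filter on dim probes (adjusted p = 0.024). A dimmer *Itga11* probe gave 0.51 (adjusted p = 0.14) and was higher in all 7 pairs. All GL2 siRNA arrays lay below all untreated arrays at the brighter probe (-0.53, adjusted p = 0.13 without a block and 0.0082 with the clusters as a block). The share of all probes without such an overlap was not computed for this comparison. At the dimmer probe these groups overlapped (-0.52, adjusted p = 0.34). Of the variance of *Itga11* within groups, 76.3% lay between the clusters, against a median of 46.4% over the detected chains and 40.9% over all detected probes. *Itgb5* at 78.7% and *Itga5* at 75% were close to it, so *Itga11* does not stand apart. Since the clusters were built from these same deviations, part of any such share is built in. The adjusted p-values with the clusters as a block can be too small for the same reason.

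**Figure D1:**
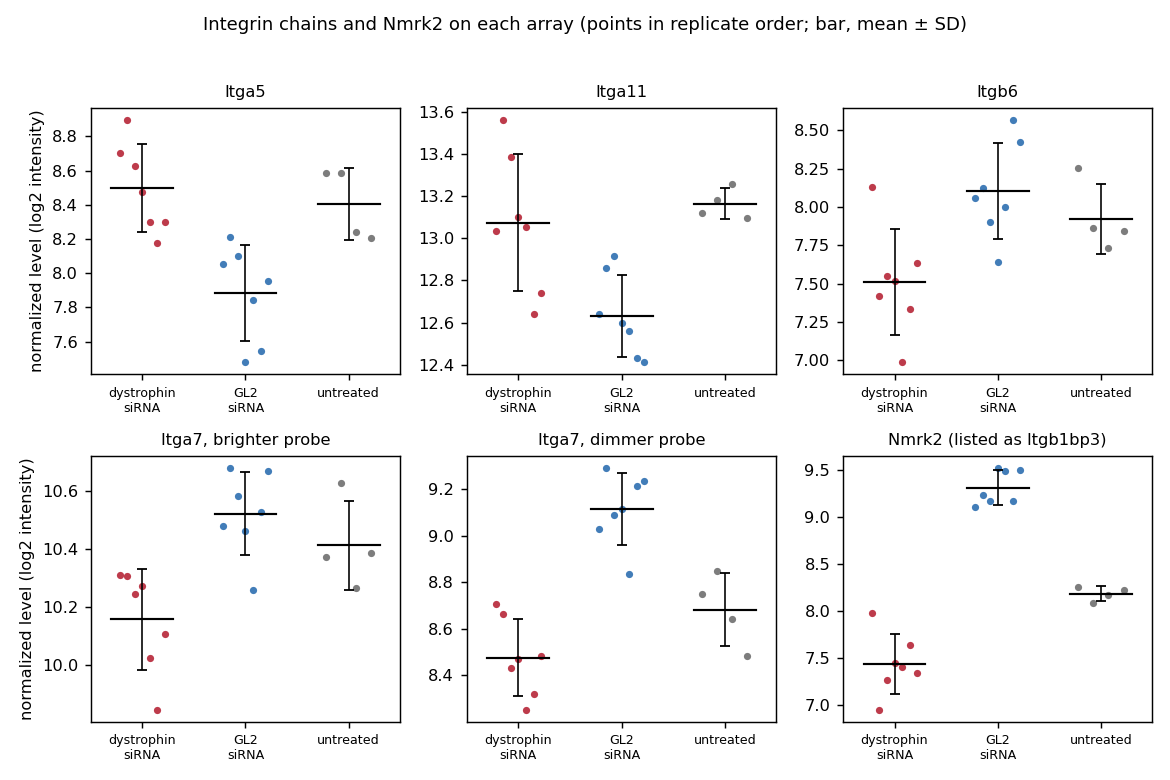
Normalized log2 intensity (vertical axis) of *Itga5*, *Itga11*, *Itgb6*, both *Itga7* probes and *Nmrk2* in the 3 groups (horizontal axis), with 1 point per array in replicate order and a bar for the mean ± SD (n = 7, 7 and 4). *Itga5* and *Itga11* are lowest with GL2 siRNA, while *Itga7*, *Itgb6* and *Nmrk2* are lowest with dystrophin siRNA, and the *Nmrk2* arrays of the 3 groups do not overlap.

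Promoter sequences are shown for the called chains with a RefSeq entry, because their transcripts differed between the siRNAs, and for *Itga11*, whose call varied with the setting. Each run covers 250 bases before to 50 after an annotated start on build GRCm38.p6, 5′ to 3′ on the gene's strand, and capitals mark matches to CAGCTG or CACCTG on either strand, letters of the E-box that myogenic factors bind. *Itga7* had no entry.
Itga5, chr15:103366742-103367041, minus strand: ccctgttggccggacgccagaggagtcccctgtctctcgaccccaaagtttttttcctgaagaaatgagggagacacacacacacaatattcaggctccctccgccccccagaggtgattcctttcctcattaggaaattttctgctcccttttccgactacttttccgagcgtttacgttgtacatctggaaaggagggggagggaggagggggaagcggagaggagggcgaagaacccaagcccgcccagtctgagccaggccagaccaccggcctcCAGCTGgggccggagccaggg
Itga11, chr9:62677605-62677904, plus strand: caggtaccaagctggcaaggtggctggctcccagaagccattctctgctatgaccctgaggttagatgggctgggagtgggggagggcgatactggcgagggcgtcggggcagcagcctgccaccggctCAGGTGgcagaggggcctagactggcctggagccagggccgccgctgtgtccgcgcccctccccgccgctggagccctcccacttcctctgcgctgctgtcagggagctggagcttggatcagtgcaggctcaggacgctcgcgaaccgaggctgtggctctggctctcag
Itgb6, chr2:60722554-60722853, minus strand: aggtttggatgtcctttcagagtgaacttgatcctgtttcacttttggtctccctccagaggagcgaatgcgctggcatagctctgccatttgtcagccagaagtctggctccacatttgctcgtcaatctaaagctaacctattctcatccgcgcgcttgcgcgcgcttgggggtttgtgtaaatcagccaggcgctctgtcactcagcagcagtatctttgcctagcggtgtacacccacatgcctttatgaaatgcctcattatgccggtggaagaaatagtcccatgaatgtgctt
Itgb6, second start, chr2:60673644-60673943, minus strand: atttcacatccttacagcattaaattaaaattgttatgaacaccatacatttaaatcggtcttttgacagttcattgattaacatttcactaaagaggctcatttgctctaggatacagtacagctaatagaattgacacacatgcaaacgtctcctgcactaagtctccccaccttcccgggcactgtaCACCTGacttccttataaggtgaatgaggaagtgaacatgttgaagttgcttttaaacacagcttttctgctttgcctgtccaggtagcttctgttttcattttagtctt
The *Itga5* window held CAGCTG from base 280 and the *Itga11* window held CAGGTG, the reverse complement of CACCTG, from base 130. Of the *Itgb6* windows, the first held neither and the second held CACCTG from base 191. CAGCTG occurred in 16.3% of all 32851 promoter windows, CACCTG on either strand in 20.2% and at least 1 of them in 32.9%. Among the 24 windows of the 21 chains with an entry, 14 held at least 1 (58.3%), a share that was not tested against that of all windows. A match gives the letters only.

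None of the other laminin receptor chains passed between the siRNAs. *Itgb1*, the common beta chain with which alpha 3, alpha 6 and alpha 7 pair, read 13.67 to 13.97 (median 13.88) with dystrophin siRNA, 13.68 to 13.98 (median 13.88) with GL2 siRNA, and 13.81, 13.79, 14.01 and 14.10 in untreated myotubes. The siRNA arrays covered the same range, 2 of the 4 untreated arrays lay above all of them, and the difference between the siRNAs was 0.01 (SE 0.08), with an interval of 0.894 to 1.13 fold. At a dimmer *Itgb1* probe, detected on all 18 arrays, the difference was -0.21 (adjusted p = 0.69), with a wider interval of 0.673 to 1.11 fold. *Itga6*, a laminin receptor chain of myoblasts and many epithelia, differed by 0.07 (interval 0.897 to 1.22 fold, adjusted p = 0.88). *Itga3* differed by -0.18 (interval 0.686 to 1.14 fold, adjusted p = 0.77). *Itgb4*, the epithelial partner of alpha 6, differed by 0.17 (interval 0.816 to 1.55 fold, adjusted p = 0.84). The intervals of *Itga3* and *Itgb4* were the wider ones.

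Of the vitronectin and fibronectin receptor chains, none passed besides *Itga5* and *Itgb6*. *Itgav*, the alpha chain that pairs with beta 3, beta 5 and beta 6, differed by 0.15 (SE 0.12, adjusted p = 0.68) and was higher with dystrophin siRNA in 6 of 7 pairs. A second *Itgav* probe gave 0.42 (adjusted p = 0.12), and another -0.05 (adjusted p = 0.91). *Itgb5* differed by -0.05 (interval 0.828 to 1.13 fold). *Itgb3*, detected on 5 arrays, differed by -0.10 with an interval of 0.612 to 1.43 fold. *Itga9*, a receptor chain for tenascin and other ligands, differed by -0.33 (SE 0.24, adjusted p = 0.62). The leukocyte chains *Itgae* and *Itgal* differed by -0.26 (adjusted p = 0.58) and 0.12 (adjusted p = 0.84).

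The laminin chains gave no call in any of the 3 comparisons, and the brighter ones varied little between arrays. *Lama2*, the alpha chain of the adult muscle laminins, read 9.17 to 9.53 (median 9.47) with dystrophin siRNA, 8.93 to 9.41 (median 9.21) with GL2 siRNA, and 9.18, 9.36, 9.21 and 9.22 in untreated myotubes. Its difference between the siRNAs was 0.21 (SE 0.09, adjusted p = 0.25), or 1.16 fold with an interval of 1.02 to 1.31 fold, and it was higher with dystrophin siRNA in 6 of 7 pairs. A dimmer *Lama2* probe gave 0.47 (adjusted p = 0.17). *Lamc1*, the gamma chain of most laminins, differed by 0.16 (SE 0.08, adjusted p = 0.36, interval 1.00 to 1.25 fold). *Lamb2*, the synaptic beta chain, differed by 0.00 (interval 0.867 to 1.15 fold). *Lama4* and *Lama5*, the alpha chains of vessel and embryonic muscle basement membranes, differed by 0.07 (interval 0.917 to 1.19 fold) and 0.14 (interval 0.965 to 1.25 fold). Over the 7 detected laminin chains the median difference was 0.14, against 0.00 over all probes, and no median over detected probes was computed.

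*Lamb3*, the beta chain of the epithelial laminin-332, spread widely between arrays. It read 5.40, 6.42, 6.19, 6.92, 6.70, 7.64 and 6.75 with dystrophin siRNA. With GL2 siRNA it read 5.21, 6.29, 6.45, 6.07, 5.84, 5.78 and 5.77, and in untreated myotubes 5.37, 6.04, 5.80 and 5.19. Dystrophin siRNA array 1 lay among the controls, and the groups overlapped. *Lamb3* differed by 0.66 from GL2 siRNA (SE 0.26, adjusted p = 0.23) and by 0.97 from untreated myotubes (SE 0.31, adjusted p = 0.205). Without dystrophin siRNA array 1 these differences were 0.85 (adjusted p = 0.041) and 1.17 (adjusted p = 0.033). The size depended on the background correction, since with a normexp correction they were 0.34 (adjusted p = 0.12) and 0.46 (adjusted p = 0.12). *Lama3*, the alpha chain of the same laminin, differed by 0.09 from GL2 siRNA, with an interval of 0.662 to 1.72 fold.

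**Figure D2:**
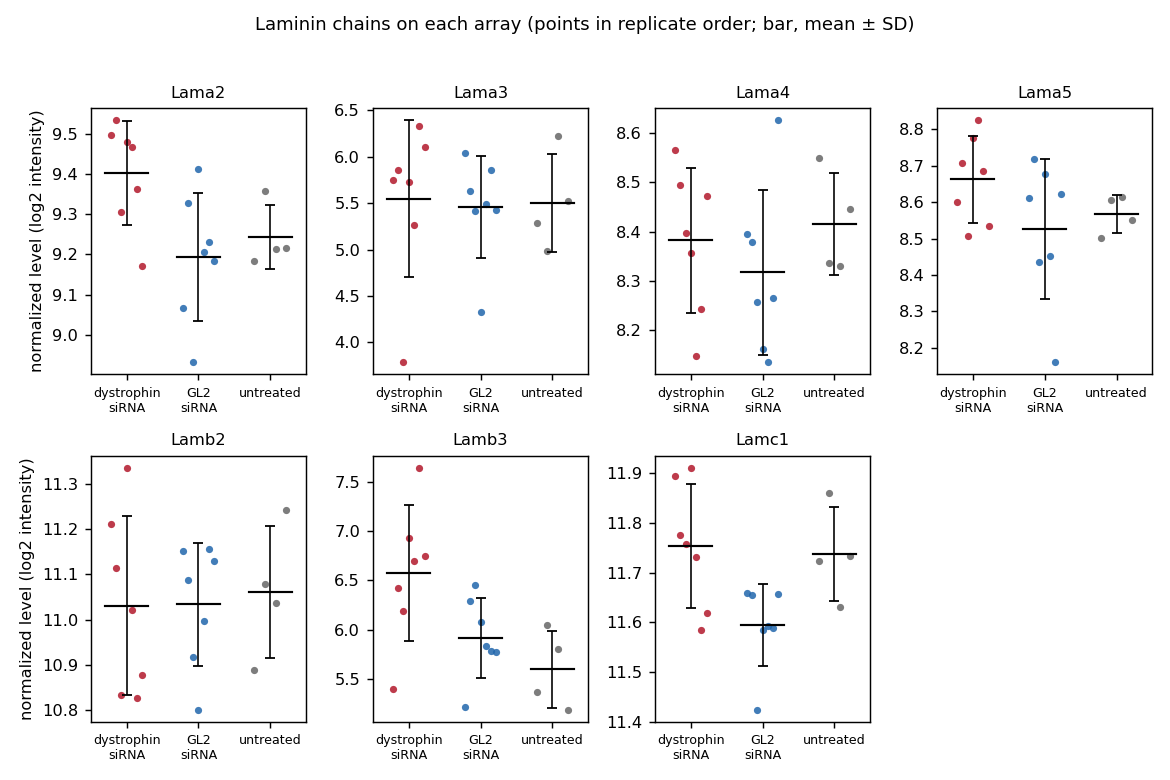
Normalized log2 intensity (vertical axis) of the 7 detected laminin chains in the 3 groups (horizontal axis), with 1 point per array in replicate order and a bar for the mean ± SD (n = 7, 7 and 4). The groups overlap for every chain, and *Lamb3* with dystrophin siRNA spreads from 5.40 to 7.64.

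Set against untreated myotubes, neither siRNA moved a member past the threshold. With dystrophin siRNA 0 of 34 chains were called, against 0.907% of all probes and 2.01% of detected probes, and at an unadjusted p under 0.05 there were 5 chains (14.7%), against 9.36% of all probes. With GL2 siRNA 0 of 34 chains were called, against 0.733% of all probes and 1.65% of detected probes, and 2 chains (5.88%) had an unadjusted p under 0.05, against 11.1% of all probes. No share of detected probes was computed for the unadjusted p, so these unadjusted shares have no matching base. Both comparisons use the same 4 untreated arrays. The 5 chains with dystrophin siRNA were *Lamb3* at 0.97, *Itga6* at 0.28, *Itga7* at -0.25, *Itgb6* at -0.41 and *Itgae* at -0.43, with adjusted p of 0.205 to 0.528. The corresponding GL2 siRNA values were 0.32, 0.21, 0.11, 0.18 and -0.17. Other probes did not keep the sign throughout, since further *Itga6* probes gave -0.25 (adjusted p = 0.82) and 0.40 (adjusted p = 0.65) with dystrophin siRNA and the dimmer *Itgb6* probe 0.13 (adjusted p = 0.85). The 2 chains with GL2 siRNA were *Itga11* and *Itga5*. Intervals lay within 1.5 fold for 14 of the 21 detected chains with dystrophin siRNA and for 12 with GL2 siRNA. *Itgb1* was at -0.07 with dystrophin siRNA (interval 0.828 to 1.09 fold), and *Lama2* at 0.16 (interval 0.965 to 1.29 fold). The dimmer *Itgb1* probe was at -0.31 (interval 0.600 to 1.08 fold).

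**Figure D3:**
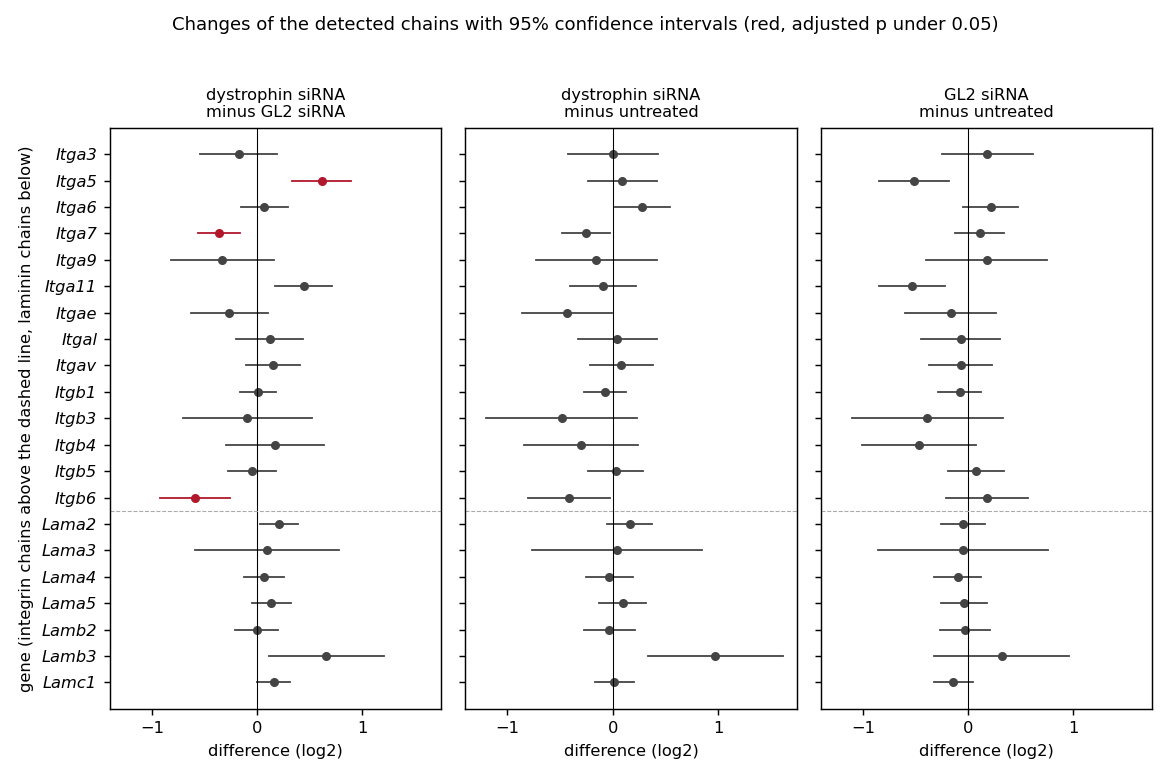
Differences between groups on the log2 scale (horizontal axes) for the 21 detected chains (vertical axis), as points with 95% confidence intervals from the limma fit, in 3 panels for dystrophin siRNA minus GL2 siRNA, dystrophin siRNA minus untreated and GL2 siRNA minus untreated. The 3 chains past the threshold, *Itga5* at 0.61, *Itga7* at -0.36 and *Itgb6* at -0.59, stand in the first panel only.

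Genes that work with integrins and laminins were followed in 5 lists with 51 measured genes, of which 45 were detected on at least 4 arrays. Between the siRNAs, 2 of the 51 passed (3.92%, against 3.76% of all probes), 1 in each direction. An unadjusted p under 0.05 was found for 19 (37.3%, against 13.8% of all probes). The lists are richer in detected genes than the array, where the detected share of probes was 41.7%. Among detected probes alone 8.27% passed, and both called genes are among the 45 detected. For the unadjusted p no share of detected probes was computed, so 37.3% has no matching base. The median difference over the 51 was 0.11, against 0.00 over all probes, and no median over detected probes was computed. Both called genes belong to the list of proteins that link integrins to the cytoskeleton, in which 1 of 17 genes was higher and 1 was lower. None of the 13 basement membrane genes, 7 other laminin receptors, 3 dystroglycan glycosylation genes or 11 membrane partners and other ligands passed. Their median differences were 0.11, -0.05, 0.21 and 0.17. *Dag1*, the dystroglycan that joins laminin to dystrophin, differed by -0.05 (SE 0.07, adjusted p = 0.88), and *Fn1*, the fibronectin bound by alpha 5 beta 1, by 0.31 (SE 0.12, adjusted p = 0.22). *Dag1* and *Fn1* were picked after their values were seen.

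The largest difference of the 51 was in *Nmrk2*, which was also named *Itgb1bp3* and muscle integrin binding protein, encodes a nicotinamide riboside kinase and has been described as a partner of integrin alpha 7 beta 1. Its level was 7.98, 6.95, 7.26, 7.44, 7.40, 7.64 and 7.34 with dystrophin siRNA. It was 9.11, 9.24, 9.17, 9.52, 9.49, 9.17 and 9.50 with GL2 siRNA, and 8.26, 8.08, 8.17 and 8.23 in untreated myotubes. The groups did not overlap, with every dystrophin siRNA array below and every GL2 siRNA array above the untreated ones. Between the siRNAs this was so for 2.19% of all probes and 5.06% of detected probes. Against untreated arrays no such share was computed. *Nmrk2* was 1.88 lower with dystrophin siRNA than with GL2 siRNA on the log2 scale (SE 0.13, adjusted p = 9.33e-09). Against untreated myotubes it fell by 0.75 with dystrophin siRNA (adjusted p = 0.013) and rose by 1.13 with GL2 siRNA (adjusted p = 0.000396), so the difference between the siRNAs holds a change in each of them.

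*Zyx*, the zyxin of focal adhesions and actin fibres, read 14.41 to 14.63 (median 14.52) with dystrophin siRNA, 13.95 to 14.19 (median 14.10) with GL2 siRNA, and 14.24, 14.32, 14.31 and 14.45 in untreated myotubes. No dystrophin siRNA array overlapped a GL2 siRNA one, as for 2.19% of all probes and 5.06% of detected probes. *Zyx* was 0.42 higher with dystrophin siRNA (SE 0.07, adjusted p = 0.000823), and differed from untreated myotubes by 0.19 with dystrophin siRNA (adjusted p = 0.46) and by -0.23 with GL2 siRNA (adjusted p = 0.25). The other 15 genes of the list, which include talin, vinculin, integrin-linked kinase, parvin, paxillin and kindlin genes, did not pass in any comparison.

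**Figure D4:**
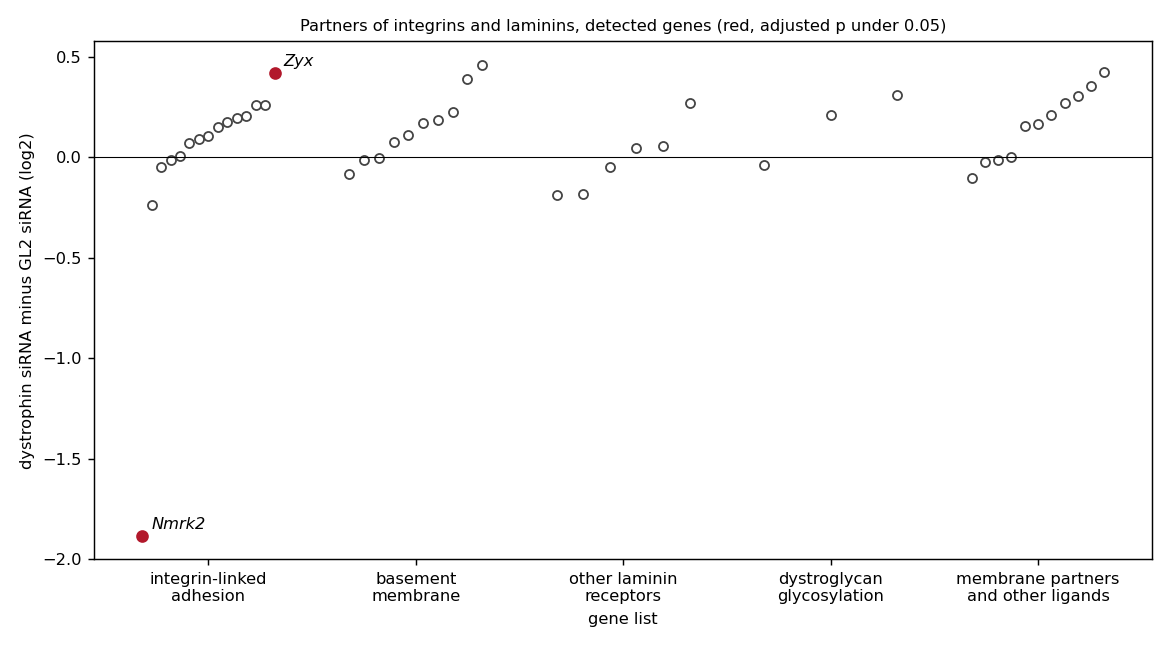
Difference between dystrophin siRNA and GL2 siRNA on the log2 scale (vertical axis) for the 45 detected partner genes, sorted within each of 5 lists (horizontal axis), with genes past the threshold in red. *Nmrk2* at -1.88 and *Zyx* at 0.42 are the 2 genes called, and the open points lie between -0.23 and 0.46.

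Markers of muscle and of other cell types were read beside these results, since in a bulk culture fewer cells of a type and less RNA per cell cannot be told apart. Of the 6 skeletal muscle markers, *Ckm*, the muscle creatine kinase, fell by 0.92 (adjusted p = 1.69e-05) and *Tnnt3*, the fast troponin T, fell by 0.30 (adjusted p = 0.0057) with dystrophin siRNA against GL2 siRNA, while the other 4 did not pass and the median of the list was -0.07. The summed normalized intensity of the list was 67520 to 75420 with dystrophin siRNA. It was 75300 to 87170 with GL2 siRNA and 83190 to 88520 in untreated myotubes. Such a sum adds linear intensities, so bright genes such as the called *Tnnt3* weigh most. It does not show a fall of the whole list. All 8 fibroblast markers were detected on all arrays and none passed. Their sum was 47580 to 77360 with dystrophin siRNA, 42320 to 61940 with GL2 siRNA and 56480 to 69120 in untreated myotubes. Their median difference between the siRNAs was 0.24. Of 6 epithelial markers *Cdh1*, *Epcam*, *Krt5* and *Krt14* were detected on no array. The keratin *Krt18*, detected on 3 of 7 dystrophin siRNA, 7 of 7 GL2 siRNA and 4 of 4 untreated arrays, fell by 1.33 (adjusted p = 0.000298), and *Krt8* was detected on 0 of 7, 6 of 7 and 0 of 4 arrays of these groups. Both keratins, *Krt18* and *Krt8*, passed as lower. The sum of the list, near the background since 4 of its genes were detected nowhere, was 73.1 to 130.1 with dystrophin siRNA. It was 131.3 to 276.4 with GL2 siRNA and 126.5 to 153.8 in untreated myotubes. *Krt18* and *Krt8* were the only genes of the list detected on any array. Of 8 endothelial markers *Vwf* alone passed, higher by 0.68 (adjusted p = 0.00104), and the median of the list was -0.04. Of 6 smooth muscle markers *Tagln* (0.66, adjusted p = 0.018) and *Cspg4* (0.35, adjusted p = 0.035) were higher, and the median was -0.02. None of 10 leukocyte, 5 Schwann cell or 4 platelet markers passed. What part the cell make-up of the cultures had in the integrin results was not tested.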

How the data were processed

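The authors exported from BeadStudio, and deposited, linear bead intensity per probe and array before background correction, with a detection p-value for each. They also deposited processed values, as intensity on a linear scale, which by their methods were background corrected, log2 transformed and quantile normalized with lumi, a tool the submitters' processing notes name too. The same steps were computed here from the bead signals with an RMA background model in R 4.3.3, and differed from the authors' values by a median of 0.00248 on the log2 scale. No probe was filtered. All 3 groups entered 1 limma 3.58.1 fit (lmFit, eBayes) with 3 comparisons and no block. The fit was tested on simulated data with noise drawn independently for each array, so that test does not cover deviations that arrays share.

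Of 46632 probes, 29976 had 1 gene symbol in the platform annotation, 10 had several and 16646 had none here. Members held 74 probes, and 19 of the 34 genes had more than 1. Chains with no symbol in this annotation were not analysed here. All detected chains were named, those past the threshold were given on every array, and other probes were given where their call differed. Of the partner lists, genes past the threshold were named. The members, the lists and the clusters used as a block were chosen with earlier results of these data known. Same-numbered siRNA arrays correlated at 0.35 to 0.51 in their deviations, and the numbers were taken to pair these arrays. The r of arrays with different numbers was not summarised, so the pairing is assumed. The counts of pairs and the replicate block rest on it. Alternatives covered the background correction, the normalization, the authors' values, a filter on dim probes, the groups in the fit, the blocks, the probe and each array left out. The number of arrays, 7, 7 and 4, limits the precision.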

Additional observations from a re-analysis of the deposited data

Results flagged for a closer look

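In 66 groups of arrays, 1 for each group and each chain detected on at least 4 arrays or *Dmd*, a single array stood apart from its group by Dixon's criterion in 4, where chance gives about 3.3 (1 in 20). *Lamc1* on GL2 siRNA array 3 was at 11.42, with the other GL2 siRNA arrays at 11.59 to 11.66. *Lama3* was at 3.79 on dystrophin siRNA array 3, with the others at 5.26 to 6.34, and at 4.32 on GL2 siRNA array 4, with the others at 5.42 to 6.04. *Itgae* was at 4.52 on GL2 siRNA array 7, with the others at 5.21 to 5.65. *Lama3* and *Itgae* are dim chains that some arrays did not detect. None of these chains passed a test.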

How the results depend on the processing

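The knockdown of *Dmd* held at the probe chosen for it under all 26 alternatives, at -1.95 to -1.64 against untreated myotubes. Between the siRNAs, the 3 chains called became 1, *Itga5*, with median centring and in a fit of the siRNA groups alone, and between 1 and 4 when any 1 array was left out. With the authors' values the same 3 were called, and with a replicate block the calls were these and *Itga11*, over 2428 probes called in all. Against untreated myotubes, leaving out 1 array gave 0 or 1 chain with dystrophin siRNA and 0 with GL2 siRNA. The replicate block called 0 chains in both (330 and 274 probes in all). For untreated arrays r with same-numbered siRNA arrays was only -0.08 to 0.28, so in these comparisons the block may not join arrays that belong together. For GL2 siRNA against untreated myotubes the count became 1 with a normexp background, without background correction and with a filter on dim probes (*Itga11*, adjusted p = 0.035, 0.036 and 0.049), and 2 with the clusters as a block. Of the 8 changes of single chains that passed in any setting, none was reversed by an alternative run. Over all probes, dystrophin siRNA against untreated myotubes gave 423 calls, against 739 with normexp, 749 without background correction, 737 with the filter, 698 with the clusters as a block, 267 with only those groups and 247 to 465 with 1 array left out. GL2 siRNA gave 342, against 839, 854, 811, 973, 217 and 147 to 377 under the same settings. Between the siRNAs it was 1752, against 2636 without background correction, 2713 with the filter, 2735 with the clusters, 1395 with median centring, 1464 with only the siRNA groups and 1472 to 1746 with 1 array left out. A replicate block restricted to the siRNA arrays, chosen after seeing the data, gave 3 chains (*Itga5*, *Itga7* and *Itga11*) and 2117 probes. Dim chains such as *Lama3* and *Itgb3* have wide intervals, and 12 chains at the background could not be read.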
